A study of Mus musculus with 10 samples.

Results

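The heat shock proteins and J-domain cochaperones were followed in the left ventricle of infarcted mouse hearts. The group took every row of the deposited gene table whose symbol begins with Dnaja, Dnajb, Dnajc, Hspa, Hspb, Hsph or Hsp90, together with the heat shock factor genes Hsf1 and Hsf2. Of 49585 rows, 70 were taken, which stand for 69 genes because Hspa14 has 2 rows. Hspa9, Hspb6, Hspb7, Dnajc15 and Dnajc19 were left out by name, and 3 pseudogenes were left out. By the place where their proteins are known to work, 50 rows were put to the cytosol and nucleus, 13 to the endoplasmic reticulum (ER), 5 to the mitochondrion, and 2 (Dnajc22 and Dnajc25) were not assigned.

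RNA came from male ICR mice, an outbred stock, 4 weeks after myocardial infarction. A group of 5 libraries came from infarcted hearts given phosphate-buffered saline (PBS) and a group of 5 from infarcted hearts given 4FM3, a treatment whose parts the labels do not spell out. The series title names direct reprogramming in vivo by AAV, a viral vector used to deliver genes. A second time in the labels, 8 weeks, has no stated start. All hearts were infarcted, none was uninjured and no group is labelled as given an empty vector, so what a vector itself does cannot be told apart from what its cargo does. Atria, valves and the right ventricle had been cut away before extraction of whole-tissue RNA, and ribosomal RNA was depleted. The labels do not say whether every library is from its own animal, so p-values speak of the spread among these libraries, which may be technical.

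Heat shock proteins are molecular chaperones that hold, fold or hand over other proteins. HSP70 proteins grip and release short stretches of unfolded protein, J-domain proteins bring clients to HSP70 and start its ATP cycle, and HSP90 proteins act later on kinases, receptors and other clients. Small heat shock proteins hold unfolded proteins without ATP and are abundant in striated muscle, where filament proteins are under mechanical load. The transcription factor HSF1 raises the inducible cytosolic genes when proteins unfold, while some ER members, such as Hspa5, answer to the unfolded protein response.

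Total counts ranged from 6634159 to 7711177 per library. Levels are given as CPM, counts relative to a library size scaled with TMM, edgeR's trimmed mean of log ratios. Changes are log2 fold changes of 4FM3 against PBS from edgeR's quasi-likelihood test, with standard errors (SE) and Benjamini-Hochberg adjusted p over all 12906 genes tested, and a gene was called at an adjusted p under 0.05. PBS replicates 2 and 3 carried lung transcripts, with 1174 and 1125 CPM summed over 9 markers of lung epithelium against 3.26 to 5.02 CPM in the other PBS libraries and 0.614 to 26.0 CPM in 4FM3.

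Of the 70 rows, 59 had enough counts to be tested. In the 4FM3 group 20 of them rose and 6 fell, and 33 were not called. The share called, 44.1% of the tested members, was close to the 43.0% called over all genes. By direction, 33.9% of the tested members rose, against 20.9% of all genes, and 6 of the 59 fell, beside 22.1% of all genes. The members' median log2 fold change was 0.15 against -0.03 over all genes. These are descriptions, since members at the edge of detection could enter the test through the group in which they were high. The share of all counts that fell on the 70 rows was 0.553% ± 0.0229 (SD, n = 5) for PBS and 0.572% ± 0.0255 for 4FM3. With library size alone as scaling, which moved the median of all genes by -0.18, 8 members rose and 12 fell, and over all genes 1540 rose and 4967 fell against 2700 and 2846 with TMM. Changes of the cytosolic, ER and mitochondrial members are given relative to TMM. Leaving out PBS replicates 2 and 3, 11 members rose and 2 fell, and over all genes 1853 rose and 1668 fell.

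**Figure D1:**
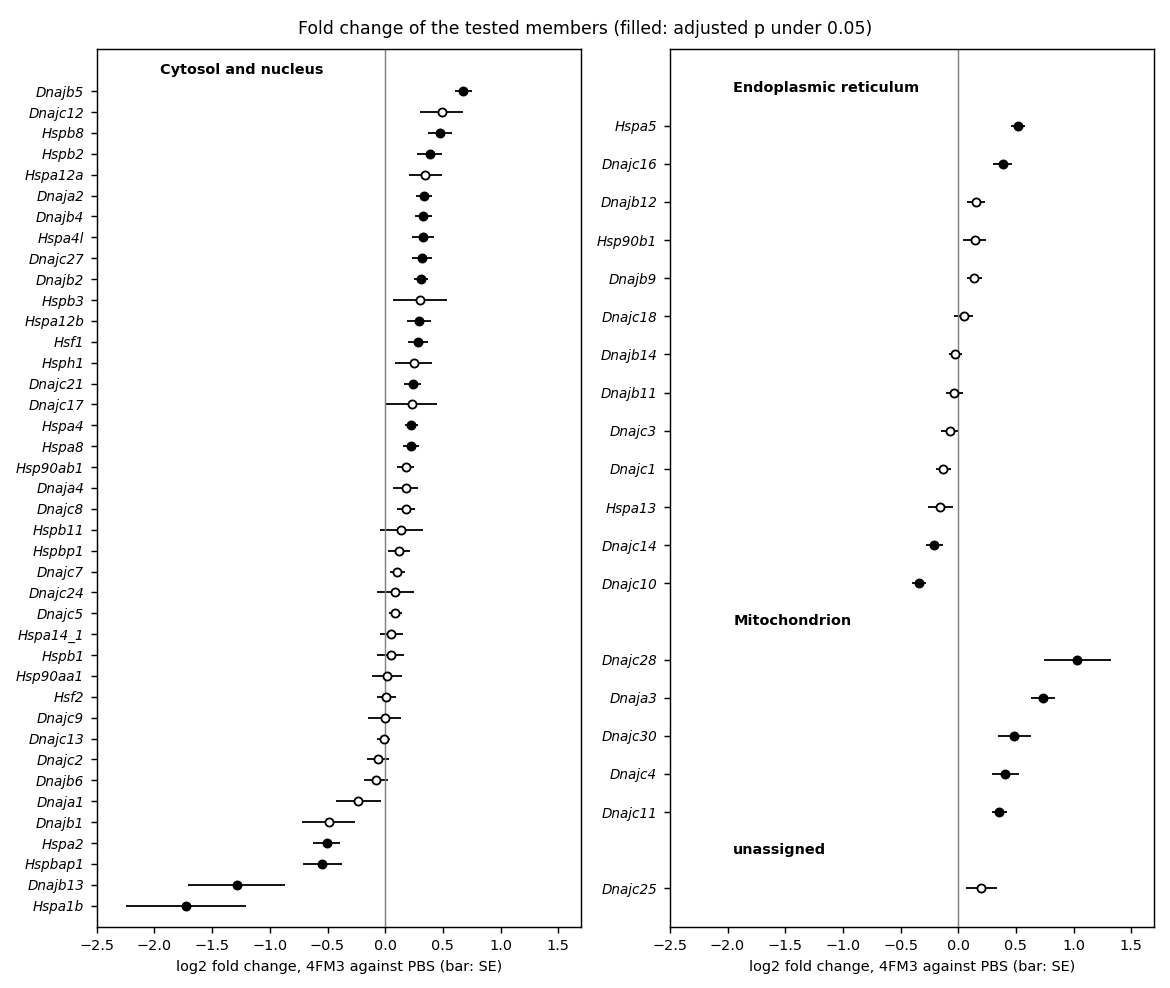
Log2 fold change of 4FM3 against PBS with its SE for each of the 59 tested members, by compartment; filled points have an adjusted p under 0.05. The 5 mitochondrial members lie between 0.36 and 1.03, the value of Dnajc28, which was near the limit of detection. The ER members lie between -0.34 and 0.52, and the cytosolic and nuclear members between -1.72 and 0.68.

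Cell type markers moved with the groups in the same libraries. All 10 cardiomyocyte markers rose and summed to 71960 to 98400 CPM in PBS and 111400 to 137500 CPM in 4FM3. All 10 fibroblast and matrix markers fell, with sums of 10920 to 13690 CPM in PBS and 4280 to 7644 CPM in 4FM3. Of 10 macrophage markers 8 fell and none rose, with sums of 822 to 1735 CPM in PBS and 734 to 877 CPM in 4FM3, and of 8 endothelial markers 5 rose and none fell, with sums of 916 to 1143 CPM in PBS and 1229 to 1330 CPM in 4FM3. In whole ventricle, fewer cells of a type and less RNA per cell cannot be told apart, and the part of cell makeup in the changes below was not tested.

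Of the heat shock factors, Hsf1 rose slightly and Hsf2 was not called. Hsf1, the main activator of the heat shock response, stood at 27.6, 25.9, 29.96, 25.3 and 23.6 CPM in PBS replicates 1 to 5 and at 31.1, 35.3, 27.6, 33.6 and 33.4 CPM in the 4FM3 replicates. All 4FM3 libraries but replicate 3 lay above every PBS library, and Hsf1 rose 1.22-fold (log2 fold change 0.28, SE 0.0890, adjusted p = 0.0217). The call was lost without 4FM3 replicate 2 (0.25, adjusted p = 0.0502), without PBS replicates 2 and 5 (0.22) and with library size alone (0.11). Hsf2, a related factor with roles in development, held 20.6, 20.4, 21.5, 20.8 and 21.5 CPM in 4FM3 within the 17.9 to 22.3 CPM of PBS (log2 fold change 0.01, SE 0.0809).

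The inducible HSP70 pair Hspa1a and Hspa1b, the genes known for switching on with heat or injury, was low in every ventricle and highest in 2 PBS libraries. The genes are near-identical neighbours on chromosome 17 (Hspa1a at 34969190 to 34972156 and Hspa1b at 34956436 to 34959238, mm10), so reads may have been split between them. Hspa1b stood at 2.47, 14.7, 4.71, 3.80 and 14.7 CPM in PBS and at 1.53, 3.25, 2.56, 2.47 and 2.31 CPM in 4FM3. Hspa1a, below the count filter, stood at 1.56, 6.92, 1.24, 1.14 and 5.02 CPM in PBS and at 0.614, 1.41, 0.641, 0.925 and 1.45 CPM in 4FM3. PBS replicates 2 and 5 were the high libraries for both genes, and the groups overlapped for both.

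Summed over the pair, PBS held 4.04, 21.6, 5.94, 4.94 and 19.7 CPM and 4FM3 2.15, 4.66, 3.20, 3.39 and 3.76 CPM. Hspa1b fell 3.31-fold (log2 fold change -1.72, SE 0.518, adjusted p = 0.0208). Without PBS replicates 2 and 5 the change was -0.59 and not called (adjusted p = 0.157). This pair was picked with the values known, and leaving out the highest PBS values lowers the difference by construction. That fit also called fewer genes in all, 3314 against 5546, so it cannot show what the call rested on. The call was kept without PBS replicate 2 alone and without PBS replicate 5 alone. It was lost without 4FM3 replicate 1 (-1.60, adjusted p = 0.0519) and without PBS replicates 2 and 3 (-1.50, adjusted p = 0.0602). It was also lost with limma-voom (-1.38, adjusted p = 0.106) and with no filter on low counts (-1.72, adjusted p = 0.0509). PBS replicates 2 and 5 also had the lowest cardiomyocyte sums of all libraries (73860 and 71960 CPM), the highest macrophage sums (1735 and 1599 CPM) and the highest sums of 10 immediate early genes (460 and 391 CPM, against 279 to 322.5 CPM in the other PBS libraries and 179.6 to 323 CPM in 4FM3). PBS replicate 2 also carried lung transcripts, and Lyz2 made 1101 of its 1735 CPM of macrophage markers. The part of these sums and of lung transcripts in the Hspa1b values was not tested.

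Of the other cytosolic HSP70 genes, Hspa8, Hspa4, Hspa4l and Hspa12b rose by small amounts, Hspa2 fell, and Hspa12a and the counted row of Hspa14 (0.05, SE 0.0988) were not called. Hspa8, the HSP70 of unstressed cells, stood at 209, 227, 200.5, 187 and 212 CPM in PBS and at 223, 262, 249, 222 and 251.6 CPM in 4FM3. It rose 1.17-fold with overlapping groups (log2 fold change 0.22, SE 0.0722, adjusted p = 0.0255), and the call was lost without 4FM3 replicate 2 (0.19), without 4FM3 replicate 3 (0.21) and with library size alone (0.05). Hspa4 and Hspa4l, which belong with the nucleotide exchange factors of HSP70, rose 1.17-fold and 1.25-fold (log2 fold changes 0.23 and 0.32). Both calls were lost with library size alone (0.05 and 0.15) and without PBS replicates 2 and 3 (0.19 and 0.33), and that of Hspa4l also without PBS replicates 2 and 5 (0.28). The endothelial gene Hspa12b rose 1.22-fold (0.29, adjusted p = 0.0408), a call lost in 7 of the 10 fits that left out 1 library (PBS replicates 1, 2, 3 and 5 and 4FM3 replicates 1, 2 and 3), between 0.22 and 0.32. Its relative Hspa12a was not called (0.35, SE 0.144, adjusted p = 0.0694), except without 4FM3 replicate 3 (0.42), without 4FM3 replicate 4 (0.43) and with DESeq2 (0.36). Hspa2, an HSP70 best known from testis, fell. Its values of 10.7, 9.68, 11.02, 11.5 and 12.5 CPM in PBS lay wholly above the 6.90, 8.62, 7.21, 8.64 and 7.52 CPM of 4FM3 (log2 fold change -0.51, or 1.42-fold lower, SE 0.116, adjusted p = 0.00424).

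Of the HSP90 genes in the cytosol, neither passed the test. Hsp90ab1, the constitutive form, had the highest level per length of all members, 378 CPM per kilobase of annotated exon in PBS and 428 in 4FM3. Its values were 1218, 1046, 1143, 1108 and 1152 CPM in PBS and 1264, 1368, 1222, 1236 and 1323 CPM in 4FM3. The groups did not overlap, as for 27.5% of all genes tested, yet the difference missed the threshold (log2 fold change 0.18, SE 0.0738, adjusted p = 0.0665), and it passed with DESeq2 (0.19) and without PBS replicate 1 (0.21). Hsp90aa1, the stress-inducible form, stood at 102, 113, 95.6, 90.7 and 114 CPM in PBS and at 103, 104, 109, 72.6 and 132 CPM in 4FM3 (log2 fold change 0.02, SE 0.130). The lowest and the highest of its 10 values both lay in 4FM3, in replicates 4 and 5.

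Hsph1, the HSP110 exchange factor, stood at 47.8, 74.5, 52.9, 51.1 and 62.6 CPM in PBS and at 66.7, 56.0, 70.0, 55.4 and 94.7 CPM in 4FM3 (log2 fold change 0.25, SE 0.163, adjusted p = 0.240). As for Hsp90aa1, 4FM3 replicate 5 was the highest library. The inducible J-domain gene Dnajb1, partner of the inducible HSP70, stood at 18.1, 35.1, 27.2, 18.99 and 33.4 CPM in PBS and at 13.3, 21.2, 14.4, 20.2 and 25.1 CPM in 4FM3 (log2 fold change -0.49, SE 0.228, adjusted p = 0.103). The J-domain gene Dnaja1 stood at 40.5, 85.0, 60.2, 44.2 and 72.3 CPM in PBS and at 45.6, 46.5, 56.2, 47.0 and 61.9 CPM in 4FM3 (log2 fold change -0.23, SE 0.196, adjusted p = 0.360). Neither was called, and Dnajb1 passed with library size alone (-0.67) and without PBS replicate 1 (-0.60).

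PBS replicates 2 and 5 were the highest PBS libraries for Hspa1a, Hspa1b, Dnajb1, Dnaja1, Hsph1 and Hsp90aa1 alike. They were the highest of PBS for 15 of the 59 tested members (25.4%) and for 17.6% of all genes tested, a count made after the values were seen. Dnajb13, a J-domain protein of the sperm flagellum and motile cilia that shares 305 bases of exon with Ucp2 on the other strand, was among them, at 2.08, 6.16, 2.97, 2.79 and 4.38 CPM in PBS and 0.307, 1.55, 1.44, 1.23 and 2.89 CPM in 4FM3. It fell 2.44-fold (log2 fold change -1.29, SE 0.423, adjusted p = 0.0272), a call lost without PBS replicate 2 (-1.01), PBS replicate 5 (-1.21), 4FM3 replicate 3 (-1.27) or 4FM3 replicate 4 (-1.23), and at -0.80 without both PBS replicates 2 and 5. Dnajb13 held 2 to 49 counts per library and could enter the test through PBS, where it was high. Dnajb13 and Hspbap1 are described because only 4 cytosolic and nuclear members fell, and were chosen after their values were seen. Hspbap1, a protein named for binding a small heat shock protein, had groups that did not overlap, at 4.82, 4.78, 6.19, 4.94 and 6.31 CPM in PBS and 3.83, 3.25, 4.00, 3.08 and 4.34 CPM in 4FM3 (1.46-fold lower, adjusted p = 0.0210), and lost its call without PBS replicate 3 (-0.47), PBS replicate 5 (-0.48) or 4FM3 replicate 4 (-0.48).

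**Figure D2:**
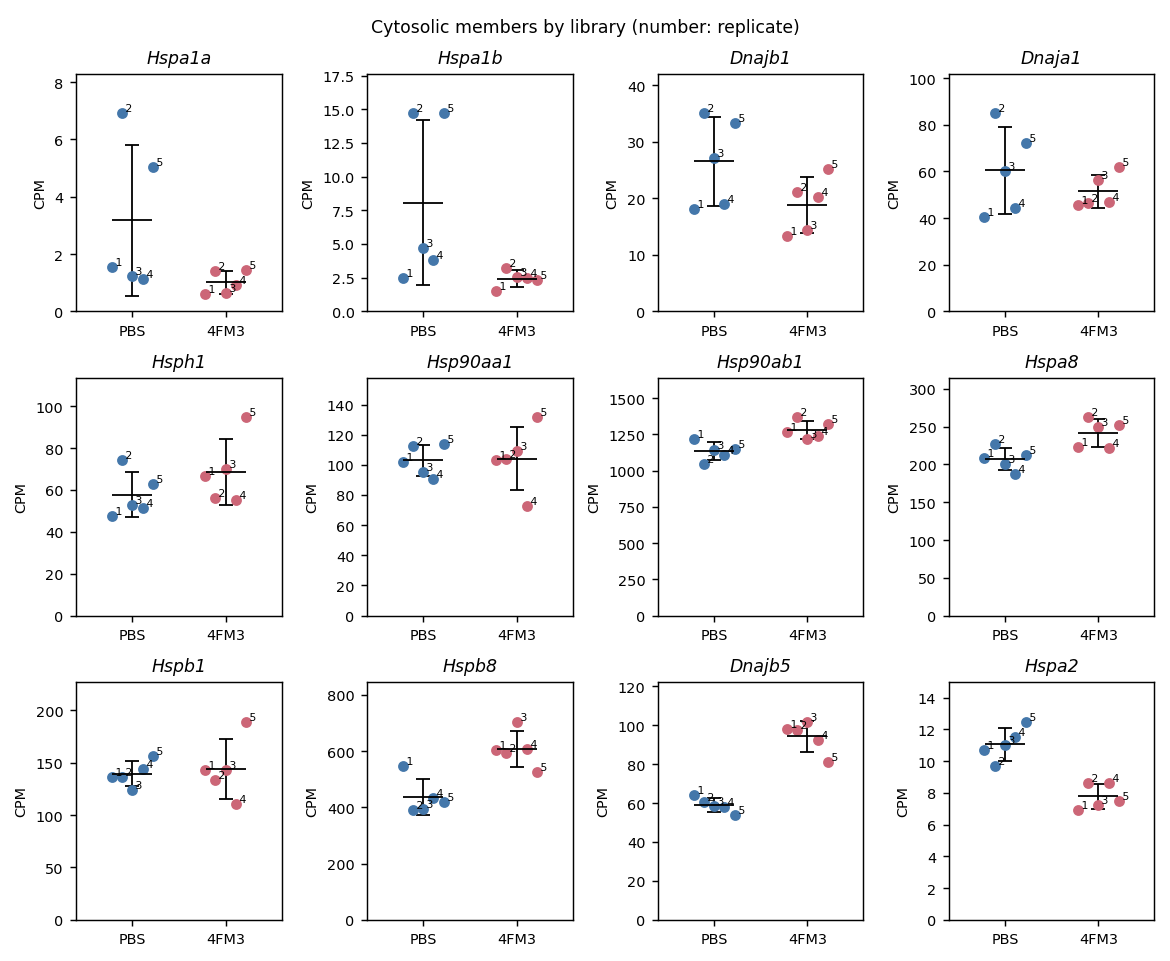
CPM of 12 cytosolic members in each library, with replicate numbers beside the points, the mean as a horizontal line and the SD as the bar (n = 5 per group). PBS replicates 2 and 5 stand high for Hspa1a, Hspa1b, Dnajb1 and Dnaja1, while the groups do not overlap for Dnajb5, Hspa2 and Hsp90ab1.

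Among small heat shock proteins, Hspb8, which works with BAG3 in clearing damaged filament proteins, rose. It stood at 548, 392, 394, 432 and 418 CPM in PBS and at 605, 594, 705, 607 and 526 CPM in 4FM3. The groups overlapped through PBS replicate 1 and 4FM3 replicate 5 alone, and the change was 1.39-fold (log2 fold change 0.48, SE 0.106, adjusted p = 0.00354). Per kilobase of exon Hspb8 was the second most abundant member, with 224 CPM in PBS and 311 in 4FM3, and Hspb1 was the third.

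Hspb1, the HSP27 gene, stood at 136, 137, 123, 144 and 156 CPM in PBS and at 142, 134, 143, 110.3 and 189 CPM in 4FM3 (log2 fold change 0.05, SE 0.119, adjusted p = 0.776). Its lowest and highest libraries were again 4FM3 replicates 4 and 5. Hspb2 rose 1.31-fold (adjusted p = 0.0146) without overlap of the groups, with means of 13.9 ± 1.55 CPM (SD, n = 5) for PBS and 18.1 ± 2.22 CPM for 4FM3, but 30.2% of its exon bases lie under exons of Cryab on the other strand. Its call was lost with library size alone (0.21) and without PBS replicates 2 and 3 (0.34) or 2 and 5 (0.29). Cryab, itself a small heat shock protein gene of heart, rose 1.52-fold from 562 ± 42.9 to 855 ± 58.0 CPM, and whether counting used the strand is not given in the sources used here. Hspb3 was not called (0.30, SE 0.236).

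Several cytosolic J-domain genes rose with groups that lay wholly apart. Dnajb5, a J-domain protein that in mouse heart takes part in holding the histone deacetylase HDAC4 in its reduced state, stood at 63.9, 60.4, 58.3, 58.1 and 53.9 CPM in PBS and at 98.0, 97.4, 102, 92.5 and 81.4 CPM in 4FM3. The change was called under every alternative run (1.599-fold, log2 fold change 0.68, SE 0.0719, adjusted p = 0.000211). It was 0.50 with library size alone.

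Dnaja2, a broad partner of HSP70, stood at 184, 158, 183, 207 and 176 CPM in PBS and at 230.1, 226, 232, 223 and 233 CPM in 4FM3, where the libraries lay close together (1.26-fold, log2 fold change 0.33, SE 0.0704, adjusted p = 0.00258). Dnajb2, which guides clients to the proteasome, stood at 71.7, 70.8, 67.2, 69.5 and 60.5 CPM in PBS and at 89.6, 82.4, 83.3, 85.9 and 80.2 CPM in 4FM3 (1.24-fold, log2 fold change 0.31, SE 0.0619, adjusted p = 0.00190). Dnajb4 stood at 125, 121, 134, 116 and 117 CPM in PBS and at 144, 156, 158, 136 and 174 CPM in 4FM3 (1.25-fold, log2 fold change 0.33, SE 0.0737, adjusted p = 0.00380). None of these 3 genes had overlapping groups. Of the 59 tested members 15 lay apart higher and 3 lower, against 14.1% and 13.4% of all genes. With library size alone Dnaja2 remained called (0.16), and Dnajb2 (0.13) and Dnajb4 (0.15) did not.

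The J-domain C genes of cytosol and nucleus have roles as varied as vesicle traffic, splicing and ribosome assembly. Dnajc27, a Rab-like GTPase with a J domain, rose 1.25-fold (0.32, adjusted p = 0.00900), a call lost with library size alone (0.14) and without PBS replicates 2 and 3 (0.25) or 2 and 5 (0.27). Dnajc21, a factor of ribosome assembly, rose 1.18-fold (0.24, adjusted p = 0.0253), a call lost without PBS replicate 2 (0.21), 4FM3 replicate 3 (0.22) or 4FM3 replicate 5 (0.20). The synaptic vesicle chaperone gene Dnajc5 (0.09, SE 0.0560), the endosomal Dnajc13 (-0.01, SE 0.0542), the ribosome-bound Dnajc2 (-0.06, SE 0.0972), the histone chaperone Dnajc9 (-0.01, SE 0.146) and Dnajb6 (-0.08, SE 0.103) were not called. Over the class of 50 rows, 13 rose and 4 fell of 40 tested, with a median log2 fold change of 0.18. The share called, 42.5%, was close to the 43.0% of all genes, and 32.5% rose against 20.9% of all genes. Without PBS replicates 2 and 3, 7 rose and 1 fell. By library size alone 3 rose and 6 fell.

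Of the 13 ER members, all tested, 2 rose, 2 fell and 9 were not called, with a median log2 fold change of -0.03. The share called was 30.8%, against 43.0% of all genes. By direction, 15.4% rose against 20.9% of all genes, and 2 of the 13 fell, beside 22.1% of all genes. Hspa5 (BiP), the HSP70 of the ER lumen and the standard readout of ER stress, rose. Of its luminal J-domain partners, Dnajc10 fell, and Dnajb9, Dnajb11 and Dnajc3 did not pass the test. Hspa5 stood at 389, 389, 385, 362 and 408 CPM in PBS and at 587, 550.3, 557, 530.5 and 545 CPM in 4FM3, with every 4FM3 library above every PBS library (chromosome 2, 34771970 to 34777547, mm10; 1.43-fold, log2 fold change 0.52, SE 0.0625, adjusted p = 0.000261). It kept its call under every alternative run, between 0.34 and 0.55.

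The ER stress element, the letters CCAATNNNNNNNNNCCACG read on both strands, stands in the promoter windows of 3 members, all of the ER. The windows were 250 bases before to 50 after each RefSeq start (GRCm38.p6), and 55 of the 69 genes had one. Of all 27025 genes with a window, 0.137% hold these letters. They are printed because only 1 of the 3 genes was called; capitals mark the fixed letters of the element, and the reverse match in Hsp90b1 is its reverse complement. A match is a description of letters and not of binding.
Hspa5, the 250 bases before the start, chr2:34771840-34772089, plus strand: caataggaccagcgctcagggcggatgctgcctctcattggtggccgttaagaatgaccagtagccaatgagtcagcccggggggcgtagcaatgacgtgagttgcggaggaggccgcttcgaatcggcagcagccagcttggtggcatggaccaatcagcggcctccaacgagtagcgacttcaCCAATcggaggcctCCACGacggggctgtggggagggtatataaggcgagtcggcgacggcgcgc
Hsp90b1, the 250 bases before the start, chr10:86705445-86705694, minus strand: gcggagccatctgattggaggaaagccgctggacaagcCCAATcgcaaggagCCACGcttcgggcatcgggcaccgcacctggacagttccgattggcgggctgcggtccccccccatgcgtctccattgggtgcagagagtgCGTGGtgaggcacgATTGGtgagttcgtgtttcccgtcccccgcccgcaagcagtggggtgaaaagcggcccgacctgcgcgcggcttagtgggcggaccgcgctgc
Dnajc3, the match alone, chr14:118937827-118937845, plus strand: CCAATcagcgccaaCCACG

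Hsp90b1 (GRP94), the HSP90 of the ER with 2 matches, stood at 270.4, 296, 286, 239 and 336 CPM in PBS and at 330.4, 284, 338, 275 and 349.6 CPM in 4FM3. The groups overlapped and the test was not passed (log2 fold change 0.14, SE 0.0984, adjusted p = 0.256). Dnajc3 (P58IPK), a luminal cochaperone of Hspa5 with 1 match, stood at 92.3, 97.8, 97.6, 89.3 and 106 CPM in PBS and at 90.2, 107, 90.4, 85.4 and 85.1 CPM in 4FM3 (log2 fold change -0.07, SE 0.0753, adjusted p = 0.444), and was called lower with library size alone (-0.25). Of the 3 genes with the element only Hspa5 was called, and the differences between their changes were not tested.

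Of the other luminal J-domain genes, Dnajb9 and Dnajb11 were not called and Dnajc10 fell. Dnajb9 (ERdj4), a target of the XBP1 branch of the unfolded protein response, stood at 34.9, 37.1, 33.8, 36.6 and 37.9 CPM in PBS and at 41.7, 40.8, 40.0, 37.5 and 38.6 CPM in 4FM3 (log2 fold change 0.14, SE 0.0626, adjusted p = 0.0861). Dnajb11 (ERdj3) stood at 39.6, 42.5, 39.2, 39.8 and 46.4 CPM in PBS and at 36.5, 41.0, 40.7, 40.1 and 44.4 CPM in 4FM3 (-0.03, SE 0.0729, adjusted p = 0.736). Dnajc10 (ERdj5), a disulfide reductase that helps misfolded proteins leave the ER, fell from 125, 123, 129, 129 and 139 CPM in PBS to 102, 112, 97.6, 96.5 and 100.3 CPM in 4FM3. Its groups did not overlap (log2 fold change -0.34, or 1.27-fold lower, SE 0.0605, adjusted p = 0.000968), and the call held under every alternative run.

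J-domain proteins anchored in the ER membrane went both ways. Dnajc16 rose, from 55.7, 48.8, 46.7, 57.4 and 44.6 CPM in PBS to 63.0, 63.7, 62.0, 71.7 and 69.7 CPM in 4FM3 (1.30-fold, log2 fold change 0.38, SE 0.0813, adjusted p = 0.00270), with no overlap. Dnajc14 fell, from 57.3, 50.7, 53.4, 50.1 and 59.8 CPM in PBS to 42.8, 44.4, 48.1, 47.6 and 51.6 CPM in 4FM3 (log2 fold change -0.21, or 1.16-fold lower, SE 0.0731, adjusted p = 0.0345). The groups of Dnajc14 overlapped, 17.0% of its exon bases lie under Ormdl2 on the other strand, and the call was lost in 7 of the 10 fits that left out 1 library (PBS replicates 1, 3 and 5 and 4FM3 replicates 1 to 4), between -0.22 and -0.16, and with DESeq2 (-0.19). Dnajb12, Dnajb14, Dnajc1, Dnajc18 and Hspa13 lay between -0.15 and 0.15 and were not called. With library size alone as scaling 2 ER members rose and 6 fell.

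**Figure D3:**
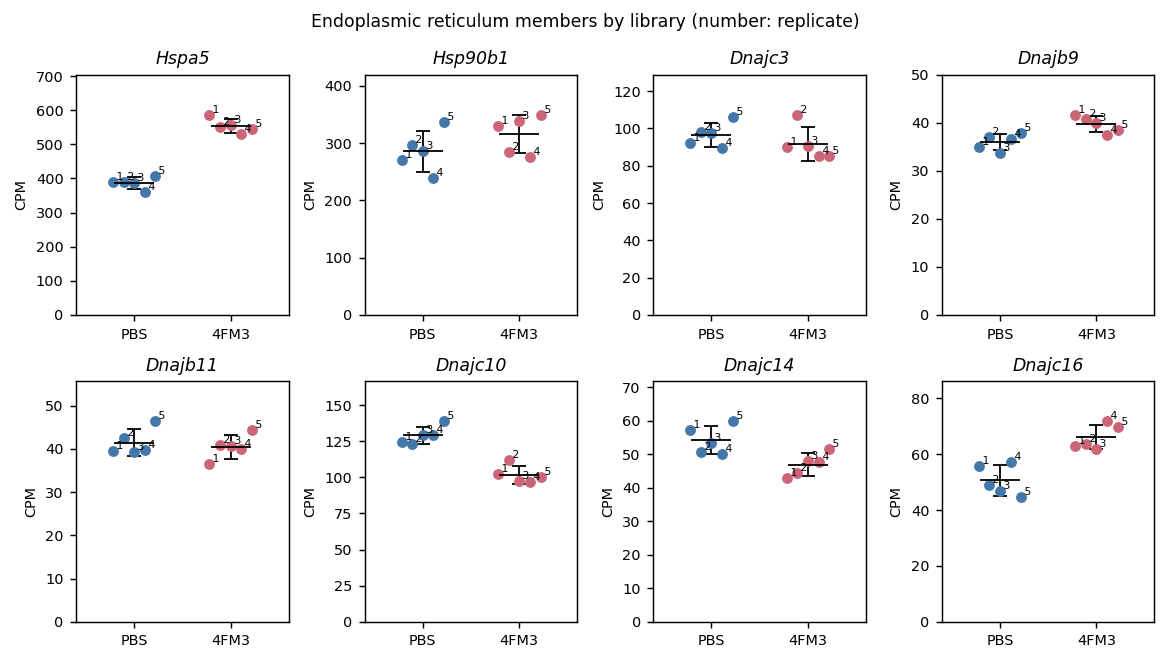
CPM of 8 ER members in each library, with replicate numbers beside the points, the mean as a horizontal line and the SD as the bar (n = 5 per group). Hspa5 and Dnajc16 lie higher in every 4FM3 library than in any PBS library and Dnajc10 lower, while Hsp90b1, Dnajc3 and Dnajb11 overlap.

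All 5 mitochondrial J-domain members rose, against 20.9% of all genes, in libraries where all 10 cardiomyocyte markers rose too. Of the 5, Dnajc28 could enter the test through 4FM3, where it was high. At a minimum of 5 CPM in 5 libraries 4 members of the class were tested, and 4 rose. The summed level of the 5 members was 168.5 to 222 CPM in PBS and 260.0 to 310.4 CPM in 4FM3. Scaled by library size alone, 3 of them were called. Dnaja3 (TID1), the J-domain partner of the matrix HSP70, stood at 117, 94.8, 99.2, 128 and 87.9 CPM in PBS and at 186, 156, 191, 186 and 157 CPM in 4FM3 (1.66-fold, log2 fold change 0.73, SE 0.105, adjusted p = 0.000336). Dnajc11, which belongs to the complex that bridges the inner and outer membranes, stood at 62.9, 61.5, 58.6, 65.2 and 57.3 CPM in PBS and at 83.4, 75.7, 79.2, 81.1 and 71.7 CPM in 4FM3 (1.28-fold, log2 fold change 0.36, SE 0.0621, adjusted p = 0.000895). Both had groups that lay wholly apart and were called under every alternative run.

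Dnajc4 stood at 18.1, 15.8, 17.7, 18.7 and 12.5 CPM in PBS and at 25, 20.2, 23.4, 22.4 and 19.2 CPM in 4FM3 (1.33-fold, log2 fold change 0.41, SE 0.118, adjusted p = 0.0148). Dnajc30, a partner of the ATP synthase, stood at 6.12, 8.68, 8.29, 9.37 and 9.53 CPM in PBS and at 13.8, 12.01, 11.7, 11.9 and 9.54 CPM in 4FM3 (1.40-fold, log2 fold change 0.49, SE 0.141, adjusted p = 0.0149). PBS replicate 5 and 4FM3 replicate 5 nearly touched, and 26.2% of the exon bases of Dnajc30 lie under Bud23 on the other strand. Dnajc28 was near the limit of detection, with 6 to 18 counts per library. It stood at 1.56, 1.01, 0.743, 0.760 and 1.29 CPM in PBS and at 2.61, 1.55, 2.88, 1.696 and 2.31 CPM in 4FM3 (log2 fold change 1.03, SE 0.292, adjusted p = 0.0130), and its groups overlapped through PBS replicate 1 and 4FM3 replicate 2. Without PBS replicates 2 and 3 the last 3 genes were no longer called and 2 members of the class were.

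**Figure D4:**
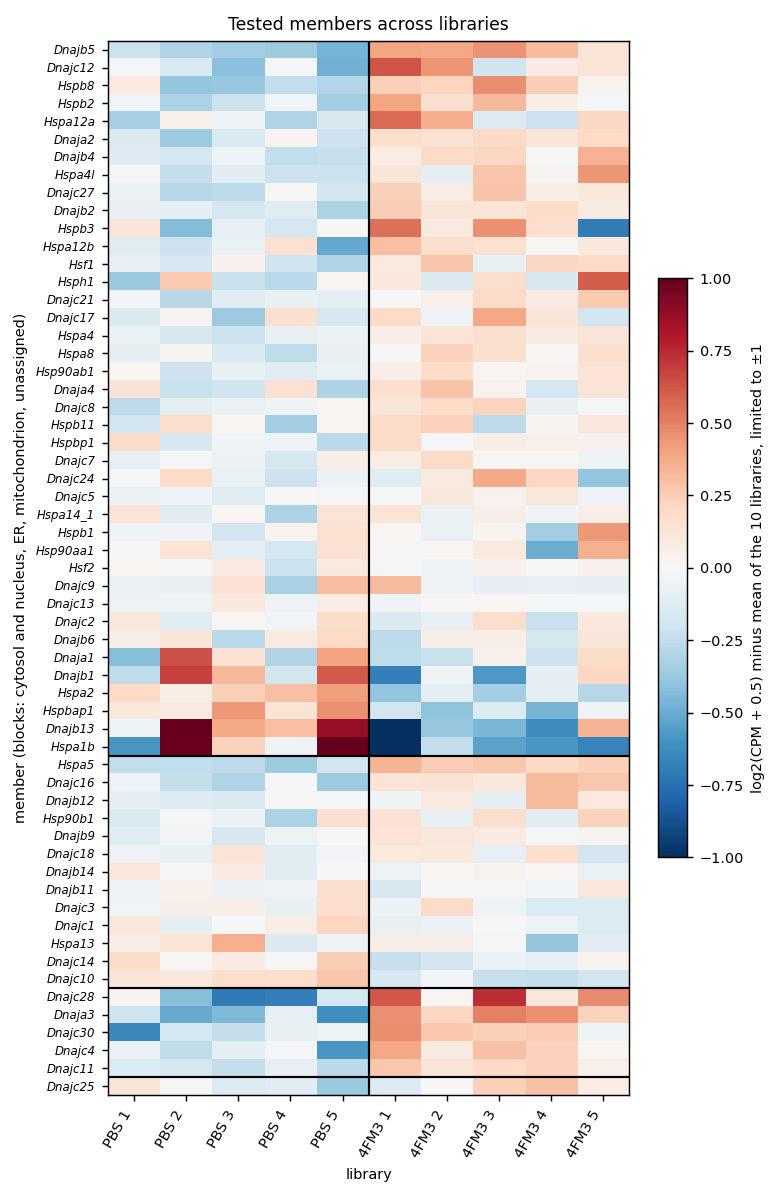
Log2 of CPM plus 0.5 for the 59 tested members (rows, in blocks by compartment) in the 10 libraries (columns), as the difference from the mean of all libraries, with colours limited to ±1. In the mitochondrial block the groups lie apart for 4 of 5 members and touch for Dnajc28, the ER block is mixed, and Hspa1b, Dnajb13, Dnajb1 and Dnaja1 are highest in PBS replicates 2 and 5.

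Ratios of 2 members within a library do not depend on scaling, and 4 such ratios were tested by exact permutation of the group labels (two-sided), where no p can be smaller than 0.00794, with adjustment over the 4. The log2 count ratio of Hspa1a plus Hspa1b over Hspa8, the inducible against the constitutive HSP70, was -4.57 ± 1.08 for PBS (mean ± SD, n = 5) and -6.18 ± 0.335 for 4FM3 (n = 5), with every 4FM3 library below every PBS library (exact p = 0.00794, adjusted p = 0.0159). The CPM sums of the pair alone overlapped, at 4.04 CPM in PBS replicate 1 and 4.66 CPM in 4FM3 replicate 2. Hspa8, the divisor, rose 1.17-fold. The ratio's difference of -1.61 stood at -0.84 without PBS replicates 2 and 5 and no longer passed (exact permutation, adjusted p = 0.0714). Every 4FM3 library still lay below the PBS libraries that were left (-5.81 or less against -5.69 or more). Fewer libraries raise the smallest p that can be reached. The ratio of Hspa5 over Hspa8, the ER against the cytosolic form, was 0.90 ± 0.0724 for PBS and 1.199 ± 0.129 for 4FM3, with every 4FM3 library above every PBS library (difference 0.30, exact p = 0.00794, adjusted p = 0.0159). Without PBS replicates 2 and 5 its difference was 0.27 and did not pass either (exact permutation, adjusted p = 0.0714).

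Hsf1 over Hsf2 averaged 0.35 ± 0.162 in PBS and 0.62 ± 0.161 in 4FM3 (difference 0.27, exact p = 0.0317, adjusted p = 0.0423), a call kept without 4FM3 replicate 3 and lost without any other single library, where the difference lay between 0.20 and 0.31. Hsp90aa1 over Hsp90ab1 averaged -3.46 ± 0.177 in PBS and -3.65 ± 0.287 in 4FM3 and did not differ beyond the spread between libraries (exact p = 0.254, adjusted p = 0.254).

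**Figure D5:**
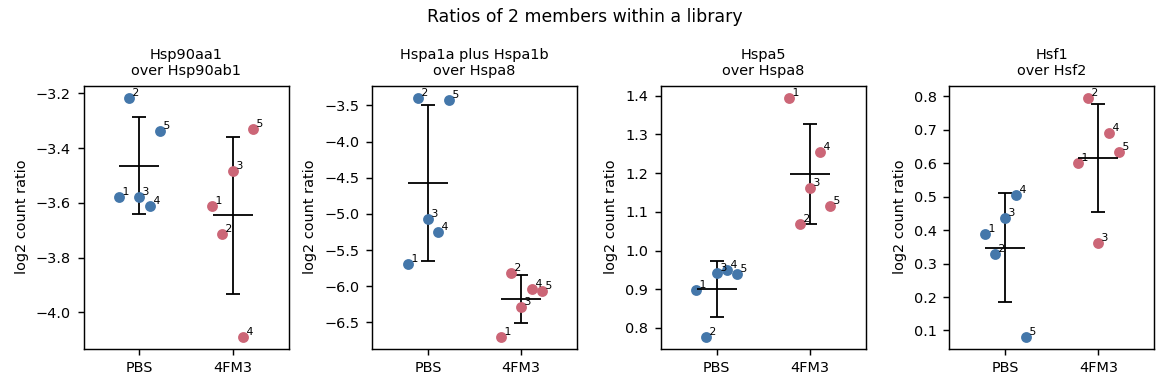
Log2 count ratio of 2 members in each library for 4 pairs, with replicate numbers beside the points, the mean as a horizontal line and the SD as the bar (n = 5 per group). Hspa5 over Hspa8 is higher and Hspa1a plus Hspa1b over Hspa8 lower in every 4FM3 library, and the other pairs overlap.

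Genes that work with the members were read from 3 lists. Among 24 tested cytosolic cochaperones 15 rose (62.5%, against 20.9% of all genes), 0 fell, and the median change was 0.27 on the log2 scale. With library size alone 7 rose and 1 fell. Fkbp4, an HSP90 cochaperone of steroid receptors, stood at 146, 134, 139, 155 and 107 CPM in PBS and at 381, 274, 339.5, 377 and 218 CPM in 4FM3 (2.33-fold, log2 fold change 1.22, SE 0.154, adjusted p = 0.000273), a larger rise than that of any tested member. Cdc37l1, Unc45b, a myosin chaperone of muscle that works with HSP90, and Stip1, which passes clients from HSP70 to HSP90, rose 1.57-fold, 1.55-fold and 1.27-fold. Of 14 genes of the chaperonin CCT and prefoldin 7 rose (50.0%) and none fell (median 0.19), and with library size alone none rose. Those that rose were led by Cct7 (1.24-fold), Tcp1 (1.18-fold), Pfdn1 (1.25-fold) and Cct2 (1.14-fold).

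Of 26 tested ER chaperone and unfolded protein response genes 3 rose and 2 fell, with a median of -0.03, close to that of all genes. The share called was 19.2%, against 43.0% of all genes. With library size alone 1 rose and 11 fell. Atf6, a sensor of the unfolded protein response, stood at 194, 183, 181, 181 and 169 CPM in PBS and at 246, 239, 235, 245 and 239 CPM in 4FM3 (1.33-fold, log2 fold change 0.41, SE 0.0556, adjusted p = 0.000297). Canx, the lectin chaperone of the ER membrane, and Sdf2 rose 1.22-fold each, and Edem1, a factor of ER-associated degradation, fell 1.37-fold. The 5 relatives left out by name all rose, by log2 fold changes of 0.45 to 0.79. Core clock genes differed between the groups in the same libraries: of 15 tested clock and temperature genes 3 rose and 8 fell, with Arntl at 6.12 ± 1.98 CPM (SD, n = 5) for PBS and 28.1 ± 6.09 CPM for 4FM3. The labels give no hour of collection, and the part of clock phase in the members' values was not tested.

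The heat shock element, read as the letters GAANNTTCNNGAA or TTCNNGAANNTTC on both strands, was found in the windows of 2 of the 55 members with a window and of 0.662% of all genes. Neither gene was called, and the matches are shown because the inducible members above are known for this element. Hspa1a, Hspa1b, Dnajb1, Dnaja1 and Hsp90aa1 gave no match, and some of them may have had no window. Only full matches to these letters within a window were counted, so elements with changed letters or outside the window were missed.
Hsph1, after the start, chr5:149636288-149636300, minus strand: TTCtgGAAagTTC
Dnajb6, before the start, chr5:29735852-29735864, plus strand: GAAtcTTCcgGAA

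The 11 rows that were too low to test were Dnajb3, Dnajb7, Dnajb8, Dnajc5b, Dnajc5g, Dnajc6, Dnajc22, Hspa1a, Hspa1l, Hspb9 and the second row of Hspa14. The rows of Dnajb3, Dnajb7, Dnajb8 and the second Hspa14 held 0 counts in every library, which allows up to 0.389 to 0.452 CPM before TMM scaling. Dnajb8, Dnajb3 and Dnajb7 are best known from testis. Dnajc6, the neuronal auxilin gene, held 1 to 13 counts per library, and Hspa1l 3 to 7.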

How the data were processed

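Reads were placed on mm10, per the submitters' processing notes. Which aligner, counter and annotation were used, and whether strand entered the counting, is not given in the sources used here. Hence overlapping genes and near-identical copies, such as processed pseudogenes of abundant members, cannot be separated further. The deposited table held whole-number read counts per gene, and only these entered the tests. Its normalized signal, per the file headers, equalled the count times 1 factor per library (0.931 to 1.11), and its transformed column, deposited by the authors, equalled log2 of that signal plus 1. In 26 rows a date stood in place of a symbol; they stayed in the tests.

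The test was that of edgeR 4.0.16 under R 4.3.3 (filterByExpr by group, TMM, robust quasi-likelihood test, no covariate), with limma 3.58.1 and DESeq2 1.42.0, other scalings and filters, and left-out libraries as alternatives, and the fit was tested on simulated data. Intervals and floors cover counting error only. Positions, exon lengths and overlaps come from GENCODE M21 on mm10 and promoter windows from RefSeq. Levels per kilobase use the union of annotated exons. Values in every library are given for 17 fixed anchors, the called cytosolic and ER members with the smallest p and at least 5 CPM (up to 5 in each direction), and every called mitochondrial member. For each list the 4 genes with the smallest p were considered. The members and lists were chosen with earlier results of these data known.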

Additional observations from a re-analysis of the deposited data

Results flagged for a closer look

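Of 60 sets of 5 values, 1 for each group of the 30 members given by library, 2 held a library whose gap to the next exceeded 0.71 of the set's range. Chance alone flags about 1 set in 20. Hspb8 stood at 548 CPM in PBS replicate 1, with the other PBS libraries between 392 and 432 CPM. Dnajc3 stood at 107 CPM in 4FM3 replicate 2, with the other 4FM3 libraries between 85.1 and 90.4 CPM.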

How the results depend on the processing

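Of the 26 called members, 9 kept their call under each of the 20 alternative fits: Dnaja2, Dnaja3, Dnajb5, Dnajc10, Dnajc11, Dnajc16, Hspa2, Hspa5 and Hspb8. No called member changed sign in a fit, 18 kept their call without any 1 library, and the causes of lost calls were not tested. Some of these fits held fewer libraries.

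Counts are of genes higher or lower in 4FM3. With library size alone, 8 members were higher and 12 lower, 3 cytosolic members higher, 6 ER members lower, 3 mitochondrial members higher, 7 cochaperones higher and 1 lower, 0 chaperonin genes higher, and 1 ER list gene higher and 11 lower. Without PBS replicates 2 and 3, 11 members were higher and 2 lower, 7 cytosolic members higher and 1 lower, 1 ER member lower, 2 mitochondrial members higher, 9 cochaperones higher, 2 chaperonin genes higher and 1 ER list gene lower. Without these and 4FM3 replicates 2 and 5, 12 members were higher and 3 lower, 6 cytosolic members higher and 2 lower, 1 ER member lower, 9 cochaperones higher and 1 lower, and 1 chaperonin gene higher. Without PBS replicates 2 and 5, 13 members were higher and 2 lower, 7 cytosolic members higher and 1 lower, 1 ER member lower, 2 chaperonin genes higher and 1 ER list gene lower. Over all genes these 3 sets of left-out libraries gave 1853, 2262 and 1744 higher and 1668, 2251 and 1570 lower. The main fit gave 2700 higher and 2846 lower. At a minimum of 5 CPM in 5 libraries 3 members were lower, 1 of them cytosolic, and 4 ER list genes. Only 52 members were tested there, and all 52 were called or not called as in the main fit. With DESeq2 and with no filter 1 ER member was lower.

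Leaving out 1 library gave 17 to 22 members higher and 3 to 7 lower, 2 to 5 cytosolic members lower, 1 or 2 ER members lower, 0 or 1 cochaperone lower and 2 to 5 ER list genes lower. Over all genes these fits gave 2317 to 2840 higher and 2206 to 2991 lower. Hsf1 over Hsf2 then lay between 0.202 and 0.332.

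The ratios, in the order of the 3 sets of left-out libraries above, were -1.39, -1.55 and -0.84 for Hspa1a plus Hspa1b over Hspa8, 0.27, 0.34 and 0.27 for Hspa5 over Hspa8, and 0.29, 0.23 and 0.17 for Hsf1 over Hsf2. None of these passed after adjustment, and with 3 libraries against 3 none could.

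The replicate numbers are shared between groups, but same-numbered libraries correlated by -0.0448 to 0.0595 in their deviations, so the number was not taken as a pairing. With the replicate number as a block 5 ER list genes were higher, and Dnajb1 (-0.48) and Dnajc12 (0.48) were called.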
